A study of Mus musculus with 30 samples.

Results

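The subject is a group of 7 genes of the DNA replication machinery, Mcm2, Mcm3, Mcm4, Mcm5, Mcm6, Mcm7 and Pcna, in mammary carcinomas from c-Myc transgenic mice. They were chosen by name, with earlier results of these data known, from 15096 genes with at least 1 spot annotated to a single gene. Each was read by 1 spot. The carcinomas gave 15 total RNA extracts, and each was read on a pair of arrays with the channels exchanged, so that 30 arrays share 1 reference RNA. Extracts are coded by number and letter: 5 extracts share number 579, 2 share number 546, and the 8 other numbers have 1 extract each. The labels place 25 arrays under the epithelial to mesenchymal transition and 5 under tumour progression. Both arrays of 550-A and 561-B fall under tumour progression, and the arrays of 595-A are split between these descriptions.

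The Myc transgene is common to every carcinoma group. The promoter that drives the transgene, the strain, the age of the mice, the meaning of the number and letter and the origin of the reference were not given in the sources used here. No label ties extracts to separate animals, and the p-values therefore cover the spread among these 15 extracts alone, part of which may be technical. The labels also name no dye and no numerator for the ratio. Arrays with the extract in channel 2 were turned in sign, after which the Myc spot was positive in 15 of 15 extracts (mean log2 ratio 3.16 ± 0.11, SE). That direction is called the Myc side, and the other the opposite side. Given the transgene, the former is likely that of higher RNA in the extract, but this was not settled, and all sides below would change places together if the ratio ran the other way.

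Mcm2 to Mcm7 encode the subunits of a ring that is loaded onto DNA at replication origins before S phase and then forms the core of the helicase that opens the double helix. Mcm4, Mcm6 and Mcm7 form a subcomplex with helicase activity of its own, while the contact between Mcm2 and Mcm5 is the gate through which DNA enters the ring. Pcna encodes the sliding clamp that holds DNA polymerases on the template behind the helicase. The genes are known as transcriptional targets of E2F factors, their RNA is widely used as a mark of proliferating cells, and Myc has been tied to several of them. The arrays read RNA from whole tissue, so a lower ratio from fewer cycling cells and one from less RNA per cell cannot be told apart.

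RefSeq promoter windows were at hand for 6 of the members in build GRCm38.p6, each from 250 bases before to 50 bases after an annotated start, and Mcm7 has 2 such windows. The 4 printed here belong to genes on which the results turn: Mcm7 stood apart from every other member, Mcm6 lay with Mcm4 at the other end, and Mcm2 and Mcm5 were the pair with the highest correlation over extracts. Capitals mark matches to an E2F motif, searched as TTTCCCGC, TTTGGCGC, TTTCGCGC or TTTGCCGC on both strands, and no case mark is used for other motifs. Each is written along the strand of its gene, the minus strand for Mcm7 (chr5:138171834-138172133), Mcm6 (chr1:128359656-128359955) and Mcm2 (chr6:88898731-88899030) and the plus strand for Mcm5 (chr8:75109259-75109558).
Mcm7: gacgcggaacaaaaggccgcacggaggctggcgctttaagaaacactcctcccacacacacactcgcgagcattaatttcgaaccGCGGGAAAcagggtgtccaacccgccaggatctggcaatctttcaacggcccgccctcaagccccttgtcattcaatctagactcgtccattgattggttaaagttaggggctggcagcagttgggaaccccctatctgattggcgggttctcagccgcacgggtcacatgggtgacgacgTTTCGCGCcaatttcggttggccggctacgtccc
Mcm6: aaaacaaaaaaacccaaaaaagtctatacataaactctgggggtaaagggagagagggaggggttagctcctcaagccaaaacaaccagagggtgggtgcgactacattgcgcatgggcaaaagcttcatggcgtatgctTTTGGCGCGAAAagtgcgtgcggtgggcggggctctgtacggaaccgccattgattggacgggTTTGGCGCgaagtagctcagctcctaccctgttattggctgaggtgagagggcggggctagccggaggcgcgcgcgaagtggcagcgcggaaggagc
Mcm2: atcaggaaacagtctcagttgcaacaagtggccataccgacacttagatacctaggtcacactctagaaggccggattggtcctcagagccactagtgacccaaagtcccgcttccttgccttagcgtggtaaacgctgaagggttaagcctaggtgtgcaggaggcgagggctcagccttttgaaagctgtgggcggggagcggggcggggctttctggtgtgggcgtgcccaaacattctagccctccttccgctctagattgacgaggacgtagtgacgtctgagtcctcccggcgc
Mcm5: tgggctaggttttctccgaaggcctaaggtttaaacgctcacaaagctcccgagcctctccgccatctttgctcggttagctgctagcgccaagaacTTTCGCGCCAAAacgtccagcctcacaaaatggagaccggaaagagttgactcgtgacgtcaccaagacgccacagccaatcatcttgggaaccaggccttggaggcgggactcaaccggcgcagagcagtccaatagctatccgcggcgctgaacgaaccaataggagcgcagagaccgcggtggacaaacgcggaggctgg

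The motif was found in 4 of the 7 windows, which belong to 4 of the 6 members, against 2.26% of 32851 promoter windows of 300 bases. Mcm7 held it at -165 and 17 bases from the start site in the window printed and nowhere in its other window (chr5:138171217-138171516). In Mcm6 the matches at -110 and -106 overlap on opposite strands and a further match lies at -47. The matches of Mcm5 at -153 and -149 overlap in the same way, Mcm3 (chr1:20820263-20820562, minus strand) had matches at 20 and 39, and Mcm2 and Pcna (chr2:132253131-132253430, minus strand) had none. The E-box CACGTG, the preferred site of Myc and Max, was in none of the 7 windows and in 7.15% of all windows. The pentamer CCAAT was in each of the 7 windows and in 37.4% of all windows. These are matches of letters within short windows and were not tied to any value.

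Arrays held from 13434 to 21991 measured values, with 546-A and 548-A the thinnest extracts. A ratio of whole numbers up to 20 accounted, at 3 decimals, for 33.6% of all measured values. Array medians as deposited ran from -1.14 to 0.41, so values with each array's median subtracted are given beside the deposited ones where they differ in call or side. Arrays of different extracts had a median correlation over probes of 0.557 with the extracts in channel 1, 0.572 in channel 2 and -0.172 in opposite channels before turning. The labelled tissue was checked by markers fixed for it: 6 of 6 epithelial markers lay on the Myc side with a median of 2.40, and their mean ran from 1.58 to 3.17 over extracts. Of 5 measured fibroblast markers 3 were called opposite and 1 on the Myc side, and their mean ran from -3.10 to 2.06. All 4 measured endothelial and all 4 measured macrophage markers lay on the Myc side. Only 2 of the macrophage markers were called with array medians subtracted, and C1qb lay at -0.65 in channel 1. Lyz2, no longer called then, lay at 0.31 as deposited, and another spot of the gene lay at 3.27. By limma 2 of 3 lymphocyte markers were called opposite, 1 of 2 adipocyte markers on the Myc side and 0 of 3 muscle markers on either side. Extracts nonetheless differed widely in the mean of the muscle markers, from -1.21 in 550-A to 3.99 in 546-A. That of the adipocyte markers ran from -1.76 to 2.53. Of all 9919 genes tested 48.4% were called.

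The comparison with the reference asked how the carcinomas stood to it for each member. Mcm7 lay clearly on the Myc side, Mcm4 and Mcm6 lay on the opposite side, and Mcm2, Mcm3, Mcm5 and Pcna did not differ detectably from the reference. Of the 6 members that passed the filter on missing values 2 were called by limma at an adjusted p under 0.05, where 47.2% of all 12888 probes tested were called. On the Myc side 1 of 6 was called, with a background of 30.4%, and on the opposite side 1 of 6, with a background of 16.9%. The members' count was thus not above that of the array. Their median difference was 0.14, beside 0.16 over the 9919 genes tested, and -0.01 beside 0.01 once array medians were subtracted.

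**Figure D1:**
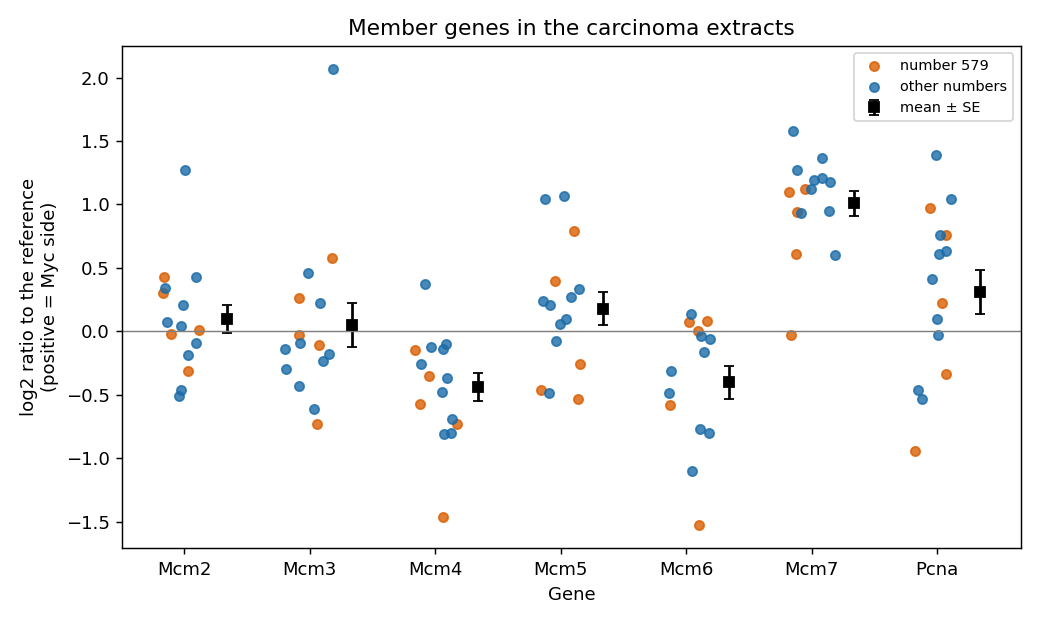
Mean log2 ratio to the reference (y axis, positive on the Myc side) of each member gene (x axis). Each point is an extract, the mean of its paired arrays, orange for the 5 extracts of number 579 and blue for the others, and black squares with bars are the mean ± SE over extracts. Mcm7 lies at 1.01 with all extracts but 579-D above 0, Mcm4 lies at -0.44, and 546-A stands alone at 2.07 for Mcm3.

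Mcm7, a subunit of the helicase core, had its lowest log2 ratio in 579-D at -0.03, a median of 1.12 and its highest ratio in 546-A at 1.58. It was on the Myc side in 14 of 15 extracts and, with 579-D set aside, no extract fell under 0.60. The mean was 1.01 ± 0.11 (SE, n = 15), a 2.01-fold difference, with a 95% interval from 0.78 to 1.24 and a limma adjusted p = 8.87e-07. Subtracting array medians left it at 0.86 (limma adjusted p = 6.03e-07). Single arrays were positive in 15 of 15 extracts with the extract in channel 1 (mean 0.84) and in 14 of 15 with it in channel 2 (mean 1.18), so both orientations placed the gene on the same side.

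Mcm4, which sits beside Mcm7 in the ring, ran the other way. Its log2 ratio was lowest in 579-D at -1.46, had a median of -0.37 and was highest in 546-A at 0.37, the only extract on the Myc side. The mean was -0.44 ± 0.12 (SE, n = 15), a 1.36-fold difference, with a 95% interval from -0.69 to -0.20 and a limma adjusted p = 0.00445. As deposited, arrays with the extract in channel 1 averaged -0.65 (limma adjusted p = 0.00106). Those with it in channel 2 averaged -0.24 and did not pass (limma adjusted p = 0.129). With array medians subtracted the mean was -0.59 (limma adjusted p = 0.000173), and the orientations then differed by 0.11 where they had differed by 0.41.

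Mcm6, the other partner of that subcomplex, was missing on both arrays of 546-A and so did not enter the tests above. Over the other 14 extracts its log2 ratio ran from -1.53 in 579-D through a median of -0.23 to 0.14 in 561-B, with 10 of 14 on the opposite side. A looser filter that lets an extract be missing, added after seeing the data, gave -0.40 ± 0.14 (SE, n = 14) and a limma adjusted p = 0.0305, where 42.7% of 16124 probes were called. Averages by orientation were -0.66 in channel 1 and -0.13 in channel 2, and 7 of the 14 arrays with the extract in channel 2 were positive. That difference of 0.53 between orientations became 0.21 with array medians subtracted. Mcm4 and Mcm6 therefore both lay on the opposite side. The narrowing between orientations was not particular to them, since subtraction moved the median difference over all tested probes from 0.30 to -0.01. The same shift took Mcm5 from 0.37 to 0.07, Mcm7 from 0.34 to 0.04, Mcm2 from 0.17 to -0.13 and Mcm3 from -0.16 to -0.48.

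Mcm2, Mcm3 and Mcm5, the subunits that do not belong to that subcomplex, had means near 0. Mcm2 ran from -0.51 in 550-A through 0.04 to 1.27 in 561-B, with a mean of 0.10 ± 0.12 (SE) and a 95% interval from -0.15 to 0.35 (limma adjusted p = 0.522). Mcm5 ran from -0.53 in 579-E through 0.21 to 1.07 in 561-B, with a mean of 0.18 ± 0.13 and an interval from -0.10 to 0.46 (limma adjusted p = 0.29). Mcm3 ran from -0.73 in 579-D through -0.11 to 2.07 in 546-A, with a mean of 0.05 ± 0.17 and an interval from -0.30 to 0.40 (limma adjusted p = 0.834). The value of Mcm3 in 546-A rests on 1 array, and without 546-A its mean was -0.10, the other side of 0. These intervals bound a difference from the reference for the 3 genes at under 0.50 in either direction.

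Pcna, the clamp gene, averaged 0.31 ± 0.17 (SE, n = 15; 95% interval -0.04 to 0.66; limma adjusted p = 0.145), with a lowest log2 ratio of -0.94 in 579-A, a median of 0.41 and a highest of 1.39 in 561-B. That mean hides a disagreement between the paired arrays of each extract. With the extract in channel 1 the mean was -0.79 (limma adjusted p = 0.019), with 3 of 15 arrays positive, and with it in channel 2 the mean was 1.40 (limma adjusted p = 0.000539), with 13 of 15 positive. Each orientation alone thus gave a call, on opposite sides. The difference of 2.19 (SD 1.90) had the same sign in 13 of 15 extracts, the largest was 5.32 in 597-B, and 87.9% of all tested probes had a difference between orientations of smaller size, with a median size of 0.62.

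The other 5 tested members had orientation differences from -0.16 to 0.41, and between 15.2% and 36.3% of all probes had one of smaller size. Of the Pcna values 33.3% were ratios of small whole numbers, close to the share over the whole table, against 3.33% for Mcm2 and 16.7% for Mcm5, the highest among the Mcm genes. With such ratios set to missing the Pcna mean was 0.66 over 13 extracts and passed (limma adjusted p = 0.038). That took out 10 of its 30 values, so some extracts kept only 1 orientation. With all ratios kept, Pcna also passed narrowly without 579-A (0.39, limma adjusted p = 0.0494). The Pcna spot does not settle on which side of the reference the gene lay.

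**Figure D2:**
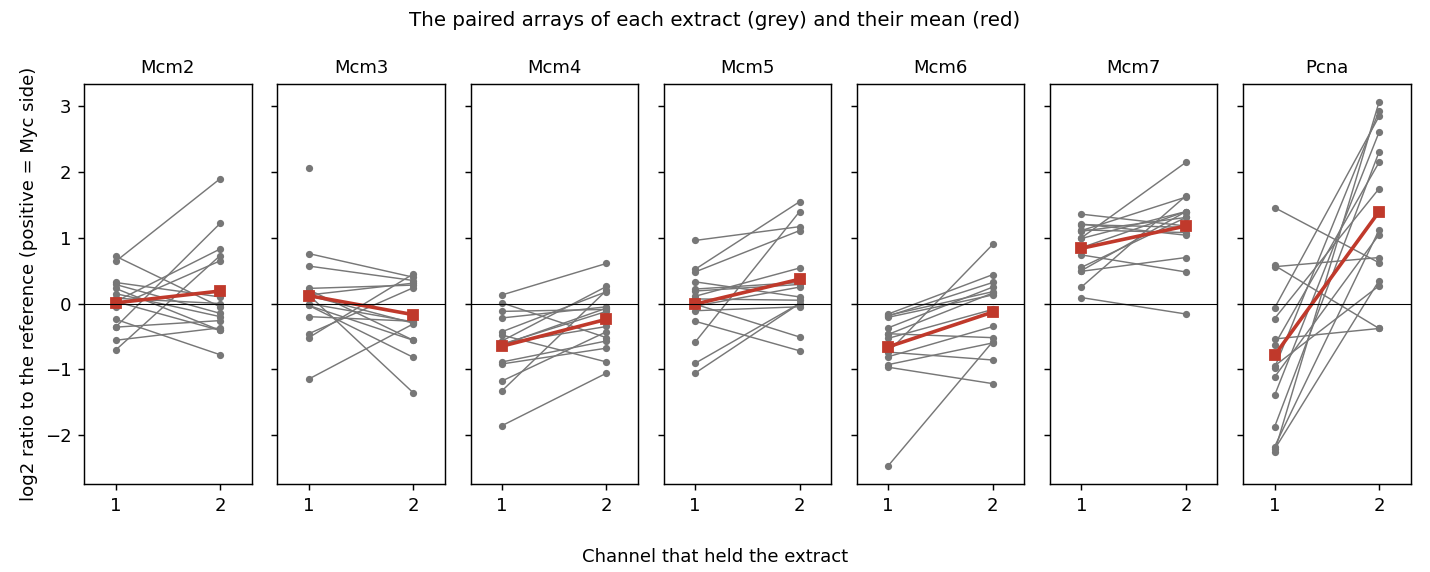
Log2 ratio to the reference (y axis, positive on the Myc side) on the array with the extract in channel 1 and on the array with it in channel 2 (x axis), 1 panel per gene. Grey points joined by a line are the paired arrays of an extract and red squares are the means over extracts. The mean of Mcm7 stays above 0 in both channels, with 579-D at -0.16 in channel 2, while the mean of Pcna crosses from -0.79 to 1.40.

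The members were next compared with each other within extracts, which removes the level of the array. Such a difference says that 2 genes stood unequally to the reference, not which RNA was the more abundant. Of 21 pairs 14 differed by a two-sided exact sign-flip permutation test with Benjamini-Hochberg adjustment over the pairs, where the smallest p that 15 extracts allow is 6.1e-05. Mcm7 differed from all 6 other members. It exceeded Mcm4 by 1.45 ± 0.07 (SE) in 15 of 15 extracts and Mcm6 by 1.36 ± 0.10 in 14 of 14 (exact permutation, adjusted p = 0.000513 for each). It exceeded Mcm3 by 0.96 ± 0.13, Mcm2 by 0.91 ± 0.12 and Mcm5 by 0.83 ± 0.11, at the same adjusted p.

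The offset between Mcm7 and Mcm4 was the steadiest of them, with an SD of 0.27 over extracts where Mcm7 alone had 0.39 and Mcm4 alone 0.43. It was 1.49 in channel 1 and 1.42 in channel 2 when each was taken alone. The excess of Mcm7 over Pcna, 0.70 ± 0.20 (exact permutation, adjusted p = 0.00897), was 1.63 in channel 1 alone and turned to -0.22 in channel 2. Pcna exceeded Mcm4 and Mcm6 as well (exact permutation, adjusted p = 0.012 and 0.00684), and with channel 1 alone both lay above Pcna, by 0.14 and 0.11. Every comparison of Pcna thus turned with the orientation.

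Mcm4 and Mcm6 could not be told apart, with Mcm4 lower by 0.11 ± 0.11 (SE, n = 14; exact permutation, adjusted p = 0.42). Each lay under Mcm2, Mcm3 and Mcm5, by 0.30 to 0.62, with exact permutation adjusted p from 0.000641 to 0.0209. Arrays with the extract in channel 2 alone kept Mcm4 under Mcm2 and Mcm5 and Mcm6 under Mcm5, and 3 of the 6 differences no longer passed there: Mcm3 over Mcm4 (0.12), Mcm2 over Mcm6 (0.33) and Mcm3 against Mcm6 (-0.04). Mcm2, Mcm3 and Mcm5 were not distinguished from one another over both channels, with differences from 0.05 to 0.13. With channel 2 alone Mcm3 lay under Mcm2 by 0.37 and under Mcm5 by 0.55 (exact permutation, adjusted p = 0.0427 and 0.00854). The order of the means over both channels was thus Mcm7 first and Mcm6 and Mcm4 last. Between them lay Pcna, Mcm5, Mcm2 and Mcm3, whose neighbours did not differ beyond their spread over both channels.

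Within single extracts the order was largely kept. Mcm7 had the highest ratio of the Mcm genes in 13 of 15 extracts. The exceptions were 546-A, where Mcm3 was higher on its 1 array, and 579-D, where Mcm2 stood at 0.01 and Mcm7 at -0.03. Mcm4 was the lowest in 7 extracts and Mcm6 in 5, while Mcm2, Mcm3 and Mcm5 were each lowest in 1.

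**Figure D3:**
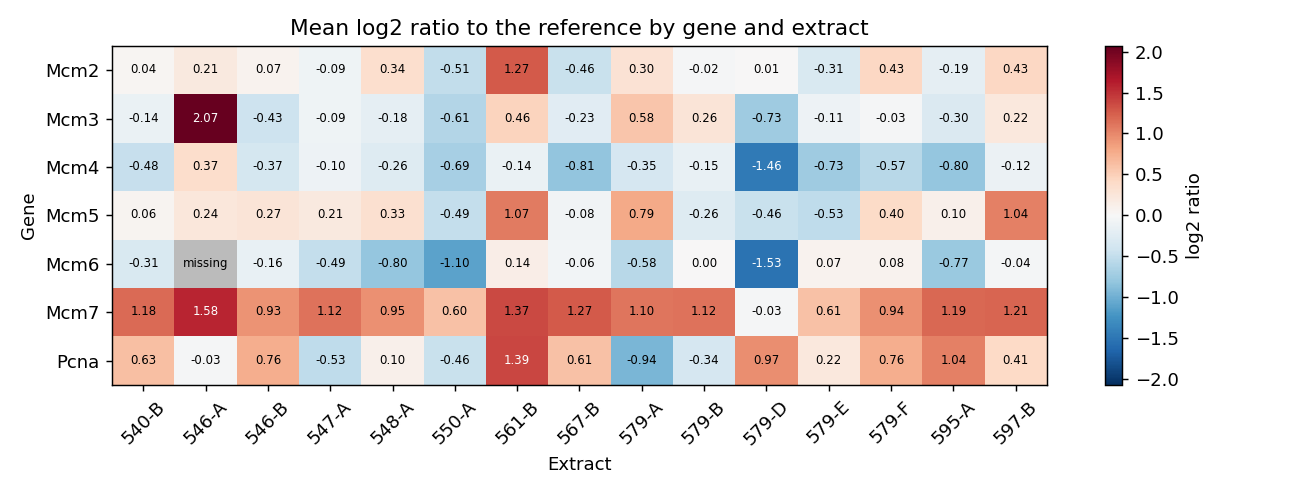
Mean log2 ratio to the reference by gene (rows) and extract (columns), red on the Myc side and blue on the opposite side, with the value in each cell and grey where no array gave one. The Mcm7 row is red in every extract but 579-D, and the 579-D column is lowest for Mcm3, Mcm4, Mcm6 and Mcm7.

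Extracts were then compared with each other. Averaged over the Mcm genes measured, 579-D was lowest at -0.70 as deposited and 550-A next at -0.47. The highest was 546-A at 0.89, over 5 genes without Mcm6 and with Mcm3 on 1 array, and 561-B was next at 0.69. With array medians subtracted 579-D (-0.61) and 546-A (0.55) kept their places. Next came 595-A (-0.38) and 579-E (-0.36), then 550-A (-0.33), at the low end, and 548-A and 561-B (0.27 each) at the high end. In 579-D 4 of the 6 Mcm genes had their lowest deposited value of all extracts, while Mcm2 (0.01) and Mcm5 (-0.46) did not. With array medians subtracted Mcm3 in 579-D (-0.64) lay just above 546-B (-0.65). In 550-A Mcm2 was at its lowest and Mcm7 (0.60) was lower than in every extract but 579-D, as deposited. After subtraction Mcm2 was lowest in 567-B (-0.64), with 550-A at -0.37, and Mcm7 in 550-A (0.74) lay above 579-E (0.42). In 561-B, Mcm2, Mcm5 and Pcna were at their highest as deposited, each above 1.00, though the paired arrays of Pcna there read -0.07 and 2.85. After subtraction Mcm2 was still highest in 561-B (0.85). Mcm5 there (0.65) then lay under 597-B (0.73), and Pcna (0.97) under 579-D (1.06).

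Single genes were tested against array noise, and the averages over Mcm genes were not tested. By limma's F-test on single arrays 0 of 6 members were called between extracts, where 6.73% of 12888 probes were called and 2830 had an unadjusted p under 0.05. Mcm3 came nearest (F = 2.56, adjusted p = 0.201, unadjusted p = 0.0385), then Mcm4 (adjusted p = 0.243) and Mcm5 (0.262). Mcm7 (0.38), Mcm2 (0.61) and Pcna (0.947) were further off by the same limma test. Mcm6 in the fit without 546-A, where 3.69% of 14208 probes were called, had an adjusted p = 0.274 and Mcm3 there rose to 0.713. With array medians subtracted again 0 of 6 members were called, beside 7.84% of the 9919 genes tested. Mcm5 then came nearest (F = 3.09, limma adjusted p = 0.122, unadjusted p = 0.0152), before Mcm3 (0.168) and Mcm4 (0.182). Paired arrays ranked the extracts alike only in part, with r over extracts of 0.49 for Mcm4, 0.48 for Mcm6, 0.42 for Mcm5, 0.39 for Mcm7, 0.12 for Mcm2, 0.10 for Mcm3 and -0.35 for Pcna as deposited. With array medians subtracted r was 0.05 for Mcm7, so its paired arrays then hardly agreed on the order of extracts, while it was 0.60 for Mcm4, 0.66 for Mcm5, 0.54 for Mcm6, 0.26 for Mcm2, 0.22 for Mcm3 and -0.31 for Pcna. The median absolute difference between paired arrays as deposited was 0.26 for Mcm7 and 2.57 for Pcna, beside 0.80 at the median probe.

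Number 579 was set against the other numbers. For Mcm7 its 5 extracts gave 1.10, 1.12, -0.03, 0.61 and 0.94, a mean of 0.75 ± 0.48 (SD, n = 5), and the 10 others 1.14 ± 0.27 (SD, n = 10). The groups overlapped, and the difference of -0.39 had a 95% interval from -0.85 to 0.07 (limma adjusted p = 1). Mcm4 gave -0.65 ± 0.50 against -0.34 ± 0.37, and the other tested members differed by 0.28 or less in size. By limma 0 of 6 members were called, as were 0% of all probes, with 460 of 12888 at an unadjusted p under 0.05.

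Between the 2 extracts of the tumour progression description and the 12 of the other description 0 of 6 members were called by limma, with a background of 0.00776% and 525 probes at an unadjusted p under 0.05. The 2 extracts stood far apart from each other, at -0.51 and 1.27 for Mcm2 and at 0.60 and 1.37 for Mcm7. The difference for Mcm7 was -0.02, with a 95% interval from -0.74 to 0.71, and that for Mcm2 was 0.30, with an interval from -0.48 to 1.07. With 2 extracts on 1 side of the comparison, intervals of this width set only a loose bound.

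Correlations over extracts describe how the members varied together. They share arrays, array level and the reference, so they are given with no p. Over the 15 pairs of Mcm genes r ran from 0.33 to 0.81 with a median of 0.58 as deposited, and from 0.07 to 0.74 with a median of 0.38 after array medians were subtracted. Pcna with each Mcm gene gave r from -0.35 to 0.34 as deposited, and its paired arrays did not agree on the order of extracts, so its values carry little on this point.

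Mcm2 and Mcm5, the gate subunits, had the highest r at 0.81 (n = 15; 0.74 with medians subtracted), and 0.72 without 561-B and 550-A, the extracts farthest from the median. When the genes were read from different arrays of each extract, so that no array was shared, r was 0.23 and 0.29. Mcm4 and Mcm7, for all that they lay on opposite sides of the reference, had r = 0.79 over extracts (0.72 with medians subtracted). Without 579-D and 546-A that r was 0.38, and with no shared array it was 0.41 and 0.64. Mcm3 and Mcm4 stood at 0.77, and 0.75 without 546-A and 579-A, but with no shared array at -0.10 and 0.65, so that 1 of these readings showed no relation. Mcm6 and Mcm7 fell from 0.66 to -0.04 without 579-D and 550-A, so that pair rests on those extracts.

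The Myc spot itself did not follow the members closely. Its r with single tested members ran from -0.14 for Mcm4 through -0.13 for Mcm7 to 0.53 for Mcm2 over 15 extracts as deposited. With array medians subtracted it ran from -0.37 for Mcm7 to 0.48 for Mcm2, with Mcm4 at -0.23, Mcm3 at -0.18, Mcm5 at 0.07 and Pcna at 0.23.

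Genes of the steps around the helicase were read from fixed lists. Of 18 measured genes that license and activate origins 6 were called opposite, 3 on the Myc side and 9 not at all, with a median of -0.16, beside 0.16 over all genes tested, which split into 1476 opposite and 3322 on the Myc side. With array medians subtracted the list split into 9 opposite and 2 on the Myc side, with a median of -0.31, and all genes into 2236 and 2537, with a median of 0.01. Cdc45, which joins the Mcm ring in the active helicase, lay at -0.47 ± 0.11 (SE; limma adjusted p = 0.00216), on the side of Mcm4. Of the GINS genes, which complete that helicase, Gins4 lay at 0.42 ± 0.11, and Gins2 lay at -1.03 ± 0.15 with another spot of the gene at 0.76, so its spots disagree.

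The other licensing genes named by the rule were Topbp1 (-0.50 ± 0.17), which helps to fire origins, and Gmnn (-0.40 ± 0.15), whose product geminin blocks licensing. Mcmbp, which binds Mcm proteins, averaged 0.60 ± 0.14 but lay at -0.16 with the extract in channel 2. Dbf4, the regulatory subunit of the kinase that activates the ring (-0.56 ± 0.17), turned to 0.03 in channel 1, and the origin recognition gene Orc3 (-0.48 ± 0.13) turned to 0.09 in channel 2.

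Of 30 measured genes of the fork and its polymerases 7 were called opposite, 5 on the Myc side and 18 not, with a median of -0.12; the split became 15 and 3 after array medians were subtracted, with a median of -0.27. Among those on the Myc side was Rfc5 (0.75 ± 0.12), a subunit of the loader that places the Pcna clamp, in 15 of 15 extracts. Pold2 (0.56 ± 0.13) and Pole3 (0.50 ± 0.09), subunits of the lagging and leading strand polymerases, lay there too, as did Rnaseh2a (0.58 ± 0.19), which no longer passed after subtraction. Pole3 lay at 0.02 with the extract in channel 1 and at 0.98 with it in channel 2. On the opposite side lay Pold4 (-0.73 ± 0.14), a further subunit of the polymerase that Pold2 belongs to, Pola1 (-0.48 ± 0.13), the catalytic subunit of the polymerase that makes primers, and Tipin (-0.42 ± 0.10), of the fork protection complex. The histone chaperone gene Asf1b (-0.70 ± 0.27) turned to 0.14 in channel 1. Subunits of shared complexes thus lay on both sides here, as in the Mcm ring.

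Genes of nucleotide supply and S phase control gave 3 calls opposite and 5 on the Myc side among 20 measured, with 12 not passing and a median of -0.05, and 7 and 4 after subtraction (median -0.20). Dctpp1, which clears modified nucleotides, stood at 1.14 ± 0.14 in 15 of 15 extracts. The E2F genes were split: E2f3 lay at 0.85 ± 0.13 and E2f6, a repressor, at 0.64 ± 0.11, both in 15 of 15 extracts, while E2f1 lay at -0.50 ± 0.16 in 13 of 15 on the opposite side. E2f5 (0.48 ± 0.15) turned to -0.06 in channel 1. Hells, a chromatin remodeller, lay at -0.59 ± 0.11, Dck, a nucleoside salvage kinase, at -0.54 ± 0.10, and the maintenance DNA methyltransferase gene Dnmt1 at 0.31 ± 0.11, which no longer passed after subtraction. As deposited another spot of Hells lay at -0.39 and did not pass, and another of Dnmt1 lay at 0.57 and passed.

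Of 34 measured mitosis genes 13 were called opposite, 2 on the Myc side and 19 not (median -0.23), against 21 and 1 after subtraction (median -0.38). They include Anln (-1.30 ± 0.12), which works in cytokinesis, and the kinetochore gene Cenpf (-1.07 ± 0.12), both on the opposite side in 15 of 15 extracts, Bub1 (-0.95 ± 0.16) of the spindle checkpoint, Top2a (-0.83 ± 0.14), which untangles sister DNA, and Nuf2 (-0.83 ± 0.15). Of the 13 opposite, Kif23 turned, to 0.38 in channel 2. Of 12 genes of the Myc network 2 were called opposite and 6 on the Myc side (median 0.26), led after Myc by its partner Max (2.10 ± 0.17), with Mxd3 (-0.92 ± 0.17) and Mycl (-0.68 ± 0.10) opposite. Of the 6 on the Myc side 3 turned in channel 1, Mxd1 to -1.30, Mxd4 to -0.28 and Mlxipl to -0.64. After subtraction the split was 2 and 4.

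**Figure D4:**
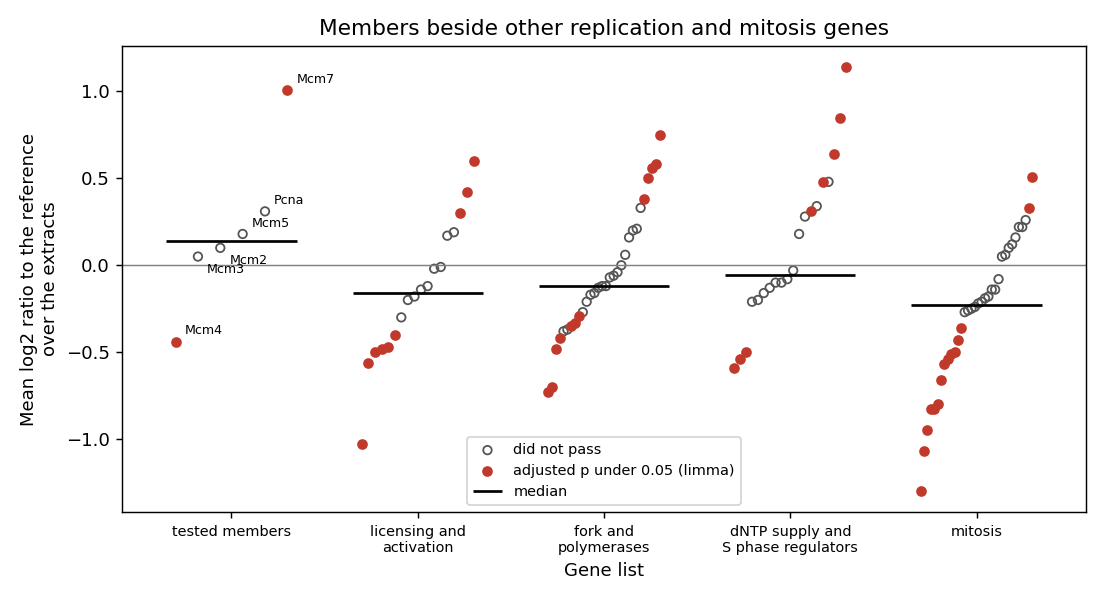
Mean log2 ratio to the reference over the extracts (y axis, positive on the Myc side) of each tested member and of each measured gene of 4 lists (x axis), ordered by value within a list. Filled red points passed limma at an adjusted p under 0.05, open points did not, and black bars are medians. Mcm7 at 1.01 stands above all but Dctpp1 among the genes shown, and the medians of the lists lie between -0.05 and -0.23.

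Over extracts the mean of the 5 tested Mcm genes varied with the means of these lists, with r over 15 extracts of 0.78 for mitosis, 0.72 for nucleotide supply and S phase, 0.71 for the fork and 0.70 for licensing as deposited. After array medians were subtracted these were 0.63, 0.49, 0.45 and 0.44. Cell type markers were set against the same Mcm mean. As deposited r was 0.64 for the 4 macrophage markers, 0.50 for the 6 epithelial and the 3 muscle markers, 0.35 for the 5 fibroblast, 0.19 for the 4 endothelial, -0.03 for the 3 lymphocyte and -0.08 for the 2 adipocyte markers. After subtraction r was 0.42 for macrophage, 0.35 for epithelial, 0.34 for muscle, 0.29 for fibroblast, -0.12 for endothelial, -0.49 for adipocyte and -0.53 for lymphocyte markers, so the largest in size were then negative. Mcm7 as deposited gave 0.72 with the epithelial and 0.71 with the macrophage markers, 0.73 with mitosis and 0.76 with nucleotide supply and S phase. After subtraction these were 0.66, 0.55, 0.56 and 0.56. The paired arrays of Mcm7 then hardly agreed on the order of extracts (r = 0.05). The part of cell type makeup in the members' values was not tested.

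The genes most like the mean of the 6 tested members, by r over 15 extracts after array medians were subtracted, were Uhmk1 (0.85), Anp32b (0.84), Nabp2 (0.84), 1700060C20Rik (0.82), Alox15, Tmpo and Ttc3 (0.81 each) and Sgo1, Aurka and Mrgbp (0.79 each), out of 9913 genes with a median r of -0.01 and a 95th percentile of 0.52. As deposited these genes ranked between 1 and 18 except Sgo1, which ranked 101. Among them Aurka and Sgo1 act in mitosis and Nabp2 binds single-stranded DNA, but a role shared by the list was not tested. The lowest r, of like size, belonged to Ube2b (-0.86), Vwa5a (-0.85), Acot12 (-0.82), Dynlt3 (-0.80) and Vmn1r14 (-0.80). With Pcna left out of the mean, a choice made after seeing the data, Anp32b (0.89) and Mrgbp (0.85) led, followed by Actl6a, Hnrnpm and Ddx39b (0.83 each).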

How the data were processed

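RNA of 15 carcinoma extracts was read on 30 dual-channel arrays. The authors deposited log2 ratios per probe for each array, a scale read from the values; background correction, normalization and channel order were not given in the sources used here. The value 16.61 (log2 of 100000; 8839 cells) was taken as a placeholder and set to missing with 95268 blank cells, leaving 84.8% of the table, and 0 value columns were left unused. Arrays with the extract in channel 2 were turned in sign and the 2 arrays of an extract averaged. A probe was tested if measured on 24 or more arrays with no extract missing altogether, which left 12888 of 22800. Of 17008 annotated probes 16874 carry 1 symbol, of which 16196 were found in the RefSeq gene table (GRCm38.p6); 134 with several and 5792 unlisted probes were not named.

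Extract means were tested against 0, or between groups, with limma 3.58.1 in R 4.3.3 (lmFit, eBayes), Benjamini-Hochberg adjusted over all probes; spread of the reference, a single RNA, does not enter. Extracts were compared by limma's F-test on single arrays with a dye term, whose error is that between arrays of the same RNA. 595-A, which has mixed descriptions, stayed out of the tumour progression comparison. Pairs of members were compared by exact sign-flip permutation in Python 3.11.15. Where a gene has several spots, the spot with most measured arrays was used. The fits were tested on simulated data.

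Named beside the members are the 10 genes most and the 5 least correlated with their mean, up to 8 called genes of each replication list, and up to 5 of the mitosis and Myc network lists. Members and lists were chosen with earlier results of these data known. Alternatives covered centring, filters, whole-number ratios, orientation, thin extracts, a dye term, shared numbers and leaving out single extracts. Array number and missing spots limit the precision.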

Additional observations from a re-analysis of the deposited data

Results flagged for a closer look

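Among 14 sets of extracts examined, 7 members in number 579 and in the other numbers, 2 held an extract whose gap to its nearest neighbour was large against the range of the set. Chance gives such a gap in about 1 of 20 sets. Mcm3 stood at 2.07 in 546-A, on 1 array, with a gap of 0.599 of the range over 10 extracts, where the limit is 0.466. Mcm2 stood at 1.27 in 561-B, with a gap of 0.471 of the range, barely past the same limit. Its arrays there read 0.64 in channel 1, where 548-A was higher at 0.72, and 1.90 in channel 2.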

How the results depend on the processing

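The Mcm7 call against the reference held under every alternative run, and that of Mcm4 under all but arrays with the extract in channel 2 alone (-0.24). On the Myc side 2 members passed without whole-number ratios and on channel 2 arrays alone, and from 1 to 2 when single extracts were left out; on the opposite side 2 passed on channel 1 arrays alone and under the looser filter, and 0 on channel 2 arrays alone. Means that changed side against the reference were Pcna (-0.79) and Mcm5 (-0.01) in channel 1, Mcm3 in channel 2 (-0.17), without 546-A and 548-A (-0.09) and with 1 value per number (-0.01), and Mcm2 (-0.05) and Mcm3 (-0.10) with array medians subtracted. With single extracts left out Mcm3 ran from -0.10 to 0.10. For number 579, where no member passed, channel 2 arrays gave 0.05 for Mcm5, 0.36 for Mcm2, 0.60 for Mcm3 and 0.30 for Pcna, the set without thin extracts 0.01 for Mcm2 and 0.13 for Mcm3, and medians subtracted 0.02 for Mcm2. Leaving out single extracts of number 579 gave from -0.11 to 0.07 for Mcm2, from -0.23 to 0.09 for Mcm3 and from -0.47 to 0.01 for Pcna. For tumour progression, Mcm7 was 0.04 without thin extracts, Mcm3 0.26 in channel 1, and Mcm5 -0.17, Mcm4 -0.31 and Pcna -0.26 in channel 2. The cause of these changes was not tested. Pairs that differed numbered 15 in each channel alone; 12 and 10 of them were among the 14 called over both channels. Of the 14, 2 turned sign in each channel and lost their call there: Mcm4 and Mcm6 against Pcna in channel 1, and Mcm7 against Pcna and Mcm3 against Mcm6 in channel 2. Extract number as a random block (consensus correlation 0.00149) changed no call.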
